A study of Mus musculus with 12 samples.

Results

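The genes described here are Lyz2, its paralog Lyz1, and Hal, Cd276, Rab6b, Angptl7, Gm14085 and BC002163, 8 of the 24421 genes listed in every library. They were chosen by their measured CPM, the reads of a gene per 1000000 reads on all genes: 7 differed strongly between 2 sets of conditions, and Lyz1 was added as the paralog for comparison. The first set holds WT BMMs after RANKL, Control BMMs and Mir182mTg BMMs. The second set holds WT BMMs at baseline and Mir182ΔM/ΔM BMMs at baseline and after RANKL. Each set has 6 libraries, and the difference between the sets is therefore a description, given below without a test. The choice had no numerical threshold.

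The cells were bone marrow macrophages (BMMs), the precursors of osteoclasts, of mice of the strain C57BL/6 whose age the labels do not give. Marrow cells were cultured with M-CSF, the growth factor of macrophages, for 3 days. WT mice were Mir182+/+LysMcre(+), Mir182ΔM/ΔM mice were Mir182flox/floxLysMcre(+), Control mice were LysMcre(+), and Mir182mTg mice were LSL-Mir182LysMcre(+), so that all 12 libraries came from mice that carried LysMcre. Cells were left without RANKL (basal) or, for WT and Mir182ΔM/ΔM, received RANKL, the cytokine that drives osteoclast differentiation, for 5 days. There were 2 replicates per condition, in 6 conditions. The paper calls these biological replicates, but the labels do not say whether they came from separate mice. The labels give poly-A RNA for replicate 1 and total RNA for replicate 2, and a different pipeline for each. The p-values measure the spread between these samples, which may be technical. It includes this difference of RNA and pipeline unless the fit takes the replicate number into account. LysMcre places the Cre recombinase under the promoter of Lyz2, so the alleles act in myeloid cells, and the labels do not give the number of copies.

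Lysozymes are enzymes that cut the peptidoglycan of bacterial cell walls. The mouse has a pair of neighbouring genes for the conventional form: Lyz2, also called lysozyme M, is the form of macrophages and neutrophils and is often used as a marker of the myeloid lineage, while Lyz1, lysozyme P, is best known from the Paneth cells of the gut. In the widely used LysMcre line, Cre was inserted into Lyz2 itself.

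Lyz2 lies on chromosome 10 at 117277331 to 117282321 on the minus strand (GRCm38, the build also called mm10), and Lyz1 lies at 117287797 to 117292868 on the same strand, with 5475 bases between them. Their annotated transcripts were identical at 96% of 1262 aligned bases and their coding sequences at 95% of 444. How reads that match both genes were assigned is not given in the sources used here, so some reads of either gene may belong to the other. In the first set Lyz1 had 273 to 583 reads a library and Lyz2 103170 to 209467. Even a small share of Lyz2 reads assigned to Lyz1 would be large beside the Lyz1 reads there, and this was not tested. The stretches from 250 to 51 bases before the RefSeq start of each gene (GRCm38.p6, minus strand, chr10:117282323-117282522 for Lyz2 and chr10:117292919-117293118 for Lyz1) are shown because the paralogs had opposite patterns across the libraries and because LysMcre uses the Lyz2 promoter. Capitals mark ACTTCCT, the reverse complement of AGGAAGT, a form of the sequence that ETS factors such as PU.1 bind.
Lyz2: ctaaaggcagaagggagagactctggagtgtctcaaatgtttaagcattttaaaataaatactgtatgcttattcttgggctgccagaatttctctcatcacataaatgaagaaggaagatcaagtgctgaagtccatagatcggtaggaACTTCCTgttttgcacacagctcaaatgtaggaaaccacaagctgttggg
Lyz1: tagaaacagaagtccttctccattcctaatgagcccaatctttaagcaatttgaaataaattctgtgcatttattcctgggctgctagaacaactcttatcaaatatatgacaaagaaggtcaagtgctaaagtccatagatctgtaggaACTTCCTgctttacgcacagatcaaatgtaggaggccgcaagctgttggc

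These stretches were identical at 75.8% of 198 aligned bases, with 84.8% in the nearer 100 bases and 66.3% in the farther 100. Both held AGGAAGT, searched on both strands, once and at the same distance, from 100 to 94 bases before the start. Of 32851 RefSeq windows of the same length, 5.66% held it. The windows of Hal, Cd276, Rab6b, Angptl7 and Gm14085 did not, and the motif was picked after the lysozyme windows had been read.

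miR-182-5p, the microRNA removed or overexpressed in these mice, is shown with its seed, bases 2 to 8, in capitals (chromosome 6, 30165962 to 30165986, minus strand, RefSeq GRCm38.p6), followed by the only members whose annotated 3′ UTR held the complementary letters TTGCCAA, also in capitals.
miR-182-5p: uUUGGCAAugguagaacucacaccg
Rab6b: tattaagaTTGCCAAaaactgt
Gm14085: tttttgtaTTGCCAAagactta

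The match lay at base 242 of the Rab6b 3′ UTR and at base 531 of that of Gm14085. Of the 7 members with an annotated 3′ UTR these 2 held the letters, against 15.5% of 11005 genes with a 3′ UTR and at least 1 CPM in 2 libraries. Lyz2 and Lyz1, with 3′ UTRs of 790 and 786 bases, held none.

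The libraries had between 24951280 and 33050619 reads on genes, so that 3 reads correspond to 0.0908 to 0.12 CPM, and lower values are not interpreted. All 12 macrophage markers, among them Adgre1, Csf1r and Cd68, were at 1 CPM or more in every library, and their sum was 6887 to 12968 CPM in the second set of libraries and 6740 to 7839 in the first. Single markers differed more between conditions. Mrc1 had means of 3869 CPM in WT and 3546 in Mir182ΔM/ΔM basal BMMs, and 356.5 to 427.6 in the other conditions. Cx3cr1 had means of 16.9 CPM in WT basal and 482 in Control BMMs. The sum of 12 osteoclast markers was 10914 to 11112 CPM in WT cells after RANKL and 3290 to 3326 in Mir182ΔM/ΔM cells after RANKL, while no basal library exceeded 190.9. Summed markers of other cell types were at most 3.711 CPM for lymphocytes, 37.07 for stromal and endothelial cells and 0.179 for erythroid cells. Reads on the Mir182 locus were 79 and 123 in the Mir182mTg libraries and 0 or 1 in the other 10, WT included, so the gene row checks the transgene and not the deletion.

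The 2 WT libraries after RANKL stood apart from WT basal libraries in the genes described here, and lay with the Control and Mir182mTg libraries, which were deposited in another form (read counts rather than CPM) and were brought to CPM here. They also lay with them in some of 5 genes known to differ between inbred strains. Of these, Ifi202b and Wdfy1 were lower and Ide was higher in all 6 libraries of the first set, without overlap. Over all genes 2.44% were lower and 5.48% higher without overlap. Wdfy1 had 54.94 to 96.17 CPM in the second set and 17.46 to 19.35 in the Control and Mir182mTg libraries. The WT libraries after RANKL lay between these, at 34.48 and 33.97 CPM. Ide had 83.9 to 114 CPM in the second set and 119 to 207 in the first. Nnt overlapped, at 43.4 to 79.3 CPM in the second set and 43.7 to 48.4 in the first. Entpd4 had means of 0.885 CPM or less in every condition. Ifi202b, an interferon-inducible gene, had 82.1 to 152 CPM in the second set, 0.972 and 1.12 CPM in WT cells after RANKL, and at most 3 reads in each Control or Mir182mTg library. The Y-linked gene Ddx3y was at 77.8 to 118 CPM and Xist at 0.251 CPM or less in all 12. The part of these differences in the results below was not tested. The gaps between the sets are therefore also given without the WT RANKL libraries, and a test of a member between conditions of the loss of function experiment is also given on its own 4 libraries where this changed the call.

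Lyz2 was among the most abundant transcripts in the first set and of modest level in the second. It had 44.0 and 39.8 CPM in WT basal BMMs, 34.6 and 31.2 in Mir182ΔM/ΔM basal BMMs, and 24.0 and 22.5 in Mir182ΔM/ΔM cells after RANKL. It had 4117 and 4288 CPM in WT cells after RANKL, 5783 and 6615 in Control BMMs, and 6338 and 7062 in Mir182mTg BMMs. The groups did not overlap except for Control and Mir182mTg, and the lowest library of the first set was 93.6-fold above the highest of the second. Because these are bulk samples, fewer cells of a type and less RNA per cell cannot be told apart.

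Lyz2 took 0.412% to 0.706% of all reads on genes in the first set and ranked 5th to 8th of all genes. In the second set it took 0.00225% to 0.00440% and ranked between 4707th and 6864th. The mean of WT cells after RANKL, 4203 ± 121 CPM (SD, n = 2), was 100-fold that of WT basal cells, 41.9 ± 2.97 (SD, n = 2), and 181-fold that of Mir182ΔM/ΔM cells after RANKL, 23.2 ± 1.04 (SD, n = 2). The mean of Control BMMs, which like WT basal BMMs carried LysMcre and received no RANKL, was 6199 ± 589 CPM (SD, n = 2) and thus 148-fold that of WT basal BMMs.

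**Figure D1:**
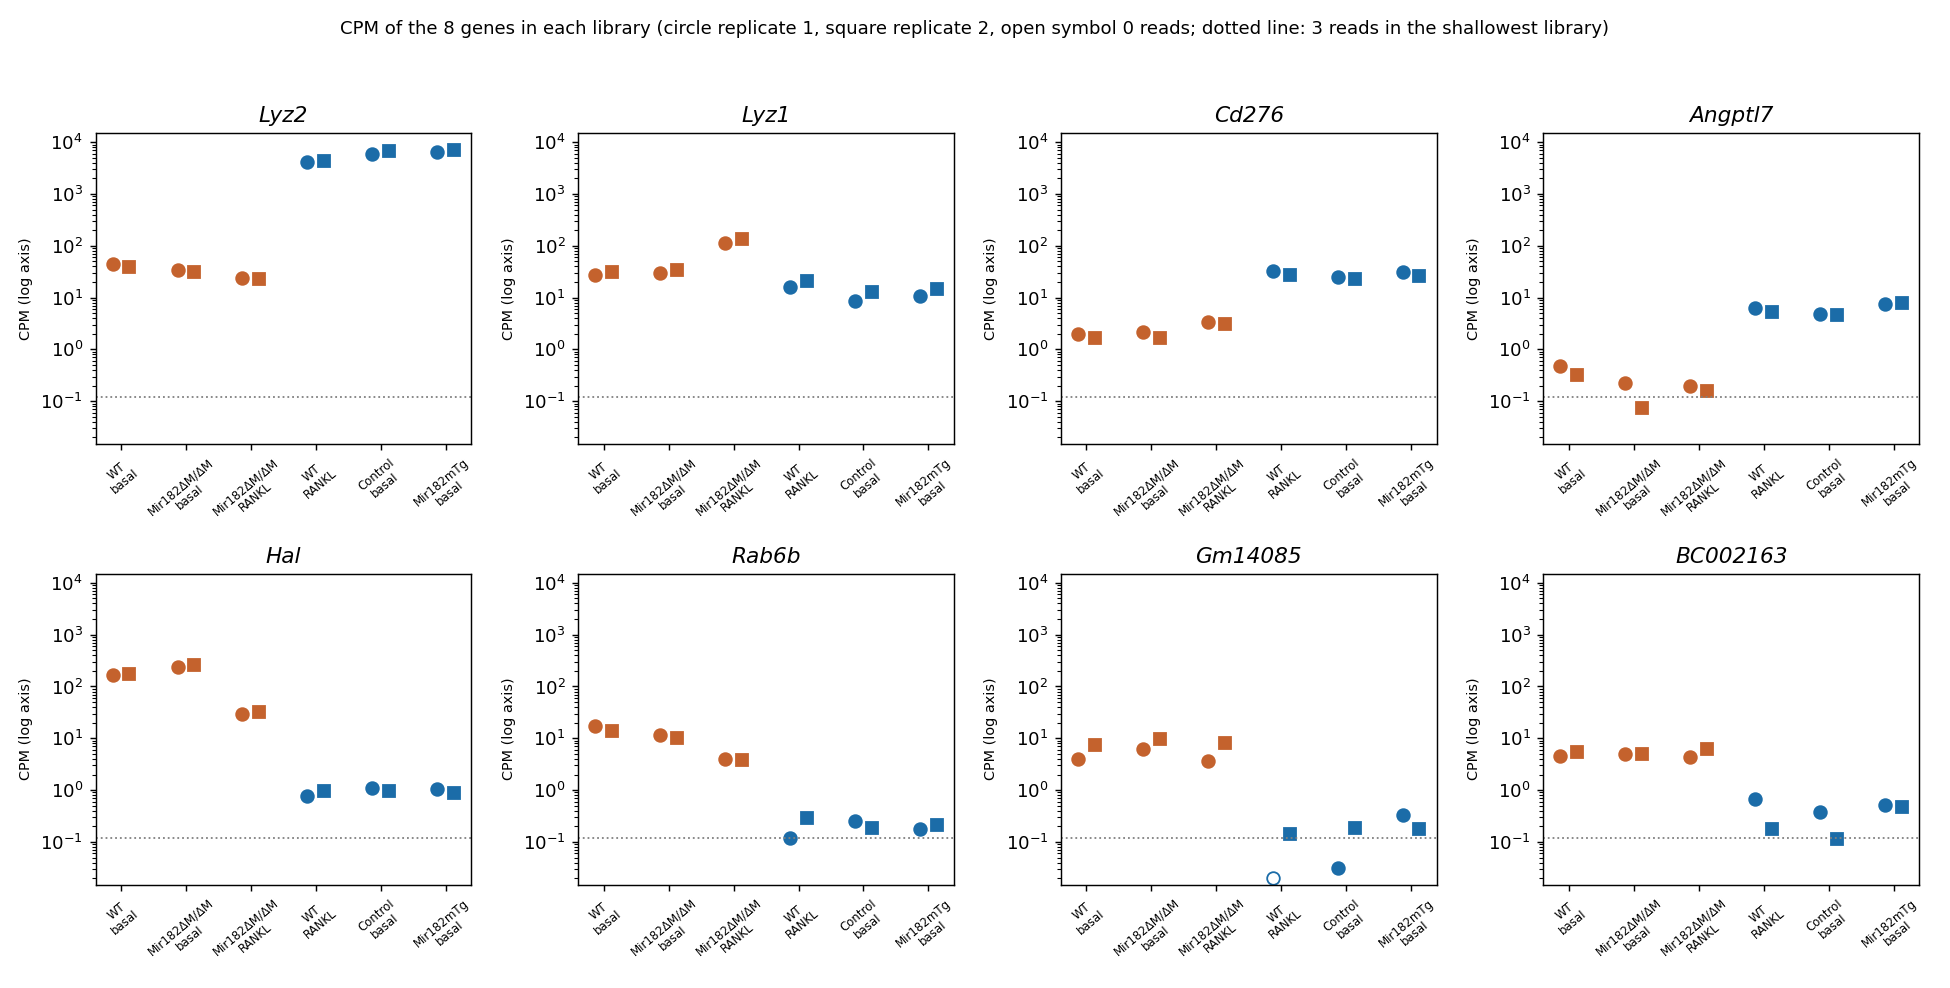
CPM (log axis) of the 8 genes in each library, with 1 panel per gene and the 6 conditions along the x axis; circles are replicate 1 and squares replicate 2, blue marks the first set of conditions and orange the second, an open symbol at the bottom is a library with 0 reads, and the dotted line is 3 reads in the shallowest library (0.12 CPM). Lyz2 lies at 4117 CPM or above in all blue libraries and at 44.0 CPM or below in all orange ones.

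Lyz1 showed the opposite order at a much smaller size. It had 27.3 and 31.4 CPM in WT basal BMMs and 29.2 and 33.5 in Mir182ΔM/ΔM basal BMMs, which overlapped. In Mir182ΔM/ΔM cells after RANKL it had 113 and 134 CPM, above every other library. It had 16.2 and 21.0 CPM in WT cells after RANKL, 8.72 and 12.8 in Control BMMs and 10.9 and 14.6 in Mir182mTg BMMs, the latter pair overlapping. All 6 libraries of the first set lay below the 6 of the second, with 1.30-fold between the nearest libraries.

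The share of each paralog in their joint reads differed between the sets. In the second set Lyz1 made up 38.3% (95% Wilson interval 36.4% to 40.3%) to 85.6% (84.5% to 86.7%) of the reads assigned to either gene, with the highest shares in Mir182ΔM/ΔM cells after RANKL. In the first set it made up 0.150% (0.134% to 0.169%) to 0.487% (0.449% to 0.528%). These intervals cover counting error only, since reads are not independent molecules, and do not cover Lyz2 reads assigned to Lyz1. Per length, in the RPKM of replicate 1, Lyz2 was 1.93 times Lyz1 in WT basal BMMs, 1.41 times in Mir182ΔM/ΔM basal BMMs and 0.254 times in Mir182ΔM/ΔM cells after RANKL. The RPKM of Lyz2 was 305 times that of Lyz1 in WT cells after RANKL, 794 times in Control BMMs and 698 times in Mir182mTg BMMs.

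The other lysozyme family genes had little signal. Lyzl4 was the only 1 of the other 7 that was detected, with group means of 0.829 to 5.25 CPM and overlapping sets, and the remaining 6, Lyzl1, Lyzl6, Lyg1, Lyg2, Spaca3 and Spaca5, had 0 reads in all 12 libraries. Neutrophils also make lysozyme M. The sum of 6 of their markers (S100a8, S100a9, Retnlg, Cxcr2, Csf3r and Mmp8) was 16.0 to 119 CPM in the second set and 26.5 to 94.0 in the first, so the sets overlapped. Of the 6, Retnlg and Cxcr2 had means of 0.995 CPM or less in every condition, and the marker Ly6g was not among the genes listed. The part of neutrophils in the Lyz2 levels was not tested. Of 12 granule and antimicrobial genes, Cybb, a subunit of the phagocyte NADPH oxidase, was the only 1 whose sets did not overlap, and it was lower in the first set.

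Cd276 and Angptl7 were the other members that were higher in the first set. Cd276 encodes B7-H3, a B7 family protein of immune regulation, and lies on chromosome 9 at 58524298 to 58555437 on the minus strand. It had 1.99 and 1.68 CPM in WT basal BMMs, 2.18 and 1.64 in Mir182ΔM/ΔM basal BMMs, and 3.38 and 3.03 in Mir182ΔM/ΔM cells after RANKL. It had 32.5 and 27.9 CPM in WT cells after RANKL, 25.2 and 22.9 in Control BMMs and 31.5 and 25.9 in Mir182mTg BMMs. The lowest library of the first set was 6.77-fold above the highest of the second, and replicate 2 was below replicate 1 in all 6 conditions.

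Angptl7 encodes a secreted angiopoietin-like protein and lies on chromosome 4 at 148495183 to 148500460 on the minus strand, within the span of Mtor. It had 0.489 and 0.321 CPM in WT basal BMMs, 0.222 and 0.0746 in Mir182ΔM/ΔM basal BMMs, and 0.197 and 0.157 in Mir182ΔM/ΔM cells after RANKL, which are 2 to 16 reads per library. It had 6.23 and 5.25 CPM in WT cells after RANKL, 4.76 and 4.54 in Control BMMs, and 7.53 and 7.91 in Mir182mTg BMMs. It was near the detection limit in the second set and was counted with 120 to 249 reads in each library of the first.

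Hal, Rab6b, Gm14085 and BC002163 were lower in the first set. Hal encodes histidine ammonia-lyase, the first enzyme of histidine breakdown, and lies on chromosome 10 at 93488768 to 93519304 on the plus strand. It had 170 and 172 CPM in WT basal BMMs, 242 and 257 in Mir182ΔM/ΔM basal BMMs and 29.7 and 31.8 in Mir182ΔM/ΔM cells after RANKL. In the 6 libraries of the first set it had 0.758 to 1.12 CPM, or 19 to 35 reads. All 3 conditions of the second set were apart from each other, while those of the first overlapped.

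Rab6b encodes a small GTPase of Golgi traffic that is best known from the nervous system, and lies on chromosome 9 at 103111787 to 103185276 on the plus strand. It had 17.0 and 13.9 CPM in WT basal BMMs, 11.4 and 9.96 in Mir182ΔM/ΔM basal BMMs, and 3.94 and 3.86 in Mir182ΔM/ΔM cells after RANKL. The first set had 0.12 to 0.288 CPM, which are 3 to 8 reads per library. Its widely expressed paralog Rab6a, with a coding sequence identical at 78.4% of 624 bases, had 94.4 to 129 CPM in the second set and 94.8 to 141 in the first, which overlapped.

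Gm14085, named Slc28a2b in RefSeq, encodes a nucleoside transporter and lies on chromosome 2 at 122484941 to 122528040 on the plus strand. It had 4.07 and 7.53 CPM in WT basal BMMs, 6.25 and 9.78 in Mir182ΔM/ΔM basal BMMs, and 3.71 and 8.07 in Mir182ΔM/ΔM cells after RANKL. The first set had 0 to 0.333 CPM, which are 0 to 11 reads. In the second set replicate 2 was 1.56 to 2.17 times replicate 1, a replicate difference larger than that between the 3 conditions, which overlapped. Its paralog Slc28a2, identical at 94.8% of 1979 aligned coding bases, also lay without overlap, at 23.9 to 42.7 CPM in the second set and 6.55 to 15.8 CPM in the first, and reads that match both cannot be assigned with certainty.

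BC002163 is a processed pseudogene on chromosome 16, at 42955631 to 42955949 on the plus strand. Its transcript of 319 bases was identical at 99.4% to that of Ndufs5, which encodes a complex I subunit. It had 4.53 and 5.41 CPM in WT basal BMMs, 4.88 and 4.89 in Mir182ΔM/ΔM basal BMMs, and 4.30 and 6.26 in Mir182ΔM/ΔM cells after RANKL. The first set had 0.113 to 0.678 CPM, which are 3 to 17 reads. BC002163 lies within the span of Zbtb20, and whether the counting used strand is not given in the sources used here. Ndufs5 itself was listed with 0 reads in all 12 libraries, while Ndufs1, another complex I gene, had means of 105 to 207 CPM, and how reads that match both were assigned was not tested.

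To place the members among all genes, the gap was taken as the lowest log2(CPM + 1) of the set with the higher values minus the highest of the other set. By this measure Lyz2 had the largest gap of all genes that were higher in the first set, at 6.52, followed by Cd276 with 2.45 and Angptl7 with 1.89, a pair whose order turned with a pseudocount of 0.1 (2.72 and 2.98). Of the genes lower in the first set, Hal was the second with 3.86, Rab6b the fourth with 1.91, Gm14085 the fifth with 1.82 and BC002163 the seventh with 1.66. Lyz1, at 0.37, was in place 91. Without overlap were 3 members in the higher direction and 5 in the lower. Of 11794 genes with at least 1 CPM in 2 libraries, 5.48% lay without overlap in the higher direction and 2.44% in the lower; the members were chosen for this pattern, so nothing is read from their count. Without the WT RANKL libraries on the first side the gap of Lyz2 was 7.01, that of Lyz1 0.86, that of BC002163 1.81, that of Rab6b 1.95, and the other 4 had the same values to 2 decimals.

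The genes whose pattern was most like that of Lyz2 over the 12 libraries were named by the same gap. Just outside the members, Itgb7, an integrin subunit, had a gap of 1.66, the same to 2 decimals as BC002163, and had 10.8 to 26.1 CPM in the second set and 85.0 to 111 in the first. Atp2b4, a plasma membrane calcium pump, had a gap of 1.5, and Tmem119, best known as a microglial marker, 1.46. Spint1, a protease inhibitor, and Cd24a, a surface glycoprotein, had 1.43 and 1.31. The chemokine receptor Ccr1, Fam83f, Rbm44, Armcx2 and Gpr141 completed the 10, with gaps of 1.27 to 1.19.

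In the direction of Hal, Ifi202b had the largest gap of all genes, 5.29, and Apoe, the apolipoprotein of lipid transport, was the third with 1.92. Apoe had 1184 to 1791 CPM in the second set and 179 to 311 in the first. Ifi44 and Ifit2, which are interferon-inducible, had gaps of 1.70 and 1.58, and Siglec1, a sialic acid-binding receptor of macrophages, had 1.65. Gm4951, Padi4, which encodes a citrullinating enzyme, Rnf144b, C1qa, a chain of complement C1q, and Gdf3 followed with 1.39 to 1.07.

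**Figure D2:**
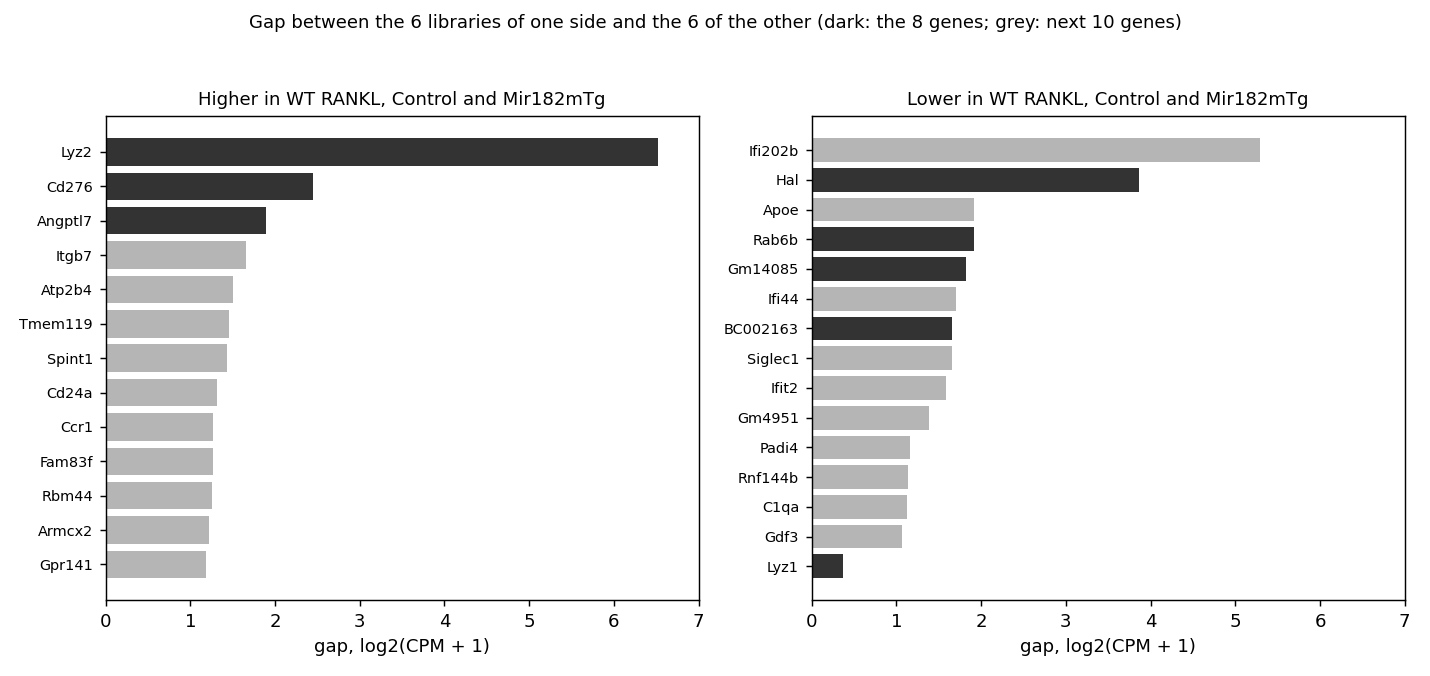
Gap in log2(CPM + 1) between the 6 libraries of one set and the 6 of the other, for genes higher (left) and lower (right) in WT RANKL, Control and Mir182mTg; dark bars are the 8 genes and grey bars the 10 next genes in each direction. Lyz2 (6.52), Ifi202b (5.29) and Hal (3.86) stand apart from the rest, which lie at 2.45 or below.

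The members lie on 5 chromosomes. Lyz2, Lyz1 and Hal are on chromosome 10, with 23.8 Mb between Hal and Lyz2, and Cd276 and Rab6b are on chromosome 9 with 44.6 Mb between them. The 35 genes with a gap of at least 1 in either direction were spread over the genome, with at most 4 on any chromosome (chromosome 2).

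Within 2 Mb on either side of Lyz2, 19 genes other than Lyz1 were tested, and none had sets without overlap. Over all genes 5.48% lay without overlap in the higher direction and 2.44% in the lower, so nothing is read from this count. The log2 ratio of set means of these 19 genes, on the CPM + 1 scale, was between -0.41 (4933412E12Rik) and 0.58 (Dyrk2). The nearest on either side of the lysozyme pair, Yeats4 and Cpsf6, had 39.1 to 55.2 and 93.9 to 147 CPM in the second set, and 39.0 to 48.8 and 117 to 156 CPM in the first. The tested genes nearest to Hal (Lta4h and Snrpf), Cd276 (Stoml1 and Nptn), Rab6b (Ryk and Srprb) and BC002163 (Igsf11 and Atp6v1a) also overlapped. Exosc10 beside Angptl7 and Bambi-ps1 beside Gm14085 overlapped too. Gatm, on the other side of Gm14085, did not, with a gap of 0.35. Gatm, which encodes an enzyme of creatine synthesis, had 164 to 359 CPM in the second set and 34.9 to 128 in the first.

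**Figure D3:**
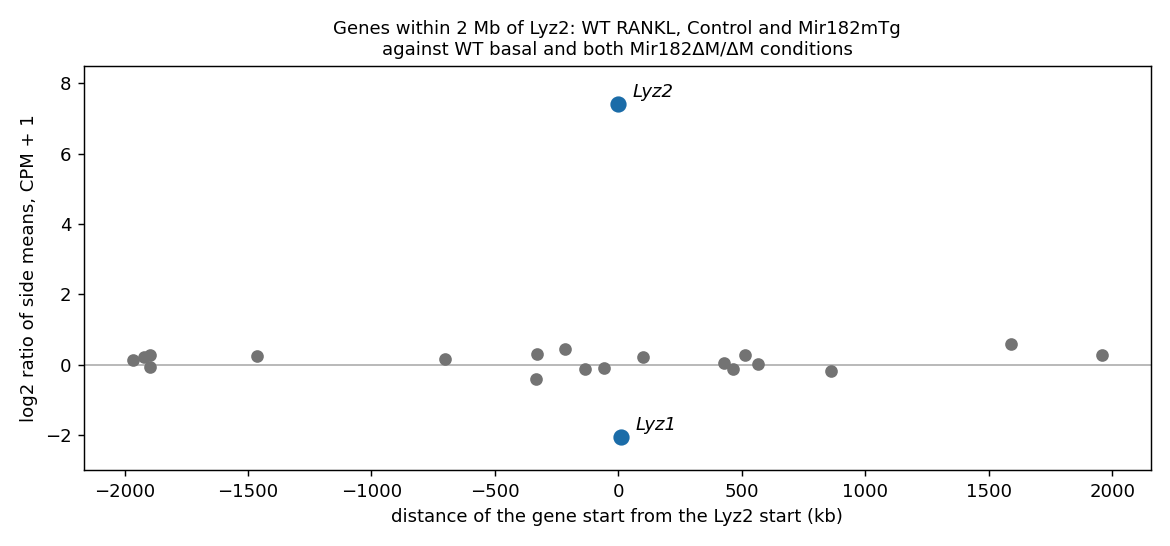
Log2 ratio of the set means (CPM + 1, first set over second) of the tested genes within 2 Mb of Lyz2, against the distance in kb of their start from the Lyz2 start; blue points are Lyz2 and Lyz1, grey points the 19 others. The others lie between -0.41 and 0.58, with Lyz2 far above them and Lyz1 below.

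Differences between conditions on the same side of the split were not used to choose the members and could be tested. The first was Mir182ΔM/ΔM against WT BMMs at baseline, tested with limma on log2(CPM + 1) over 11691 genes. Hal rose in Mir182ΔM/ΔM BMMs, from 171 ± 1.88 to 249 ± 10.6 CPM (SD, n = 2), with a log2 fold change of 0.54 (SE 0.085, limma adjusted p = 0.020). It was the only member called, 1 in the higher direction and 0 in the lower, where 2.71% of all genes were called higher and 1.10% lower. Of the 8 members 7 passed the filter on low values in the 4 libraries compared here, and Angptl7 passed only through the WT RANKL libraries, where it was high, so no test of it in this experiment is read. Hal was higher in both replicates, but the call was lost on the 4 libraries of these conditions alone (limma adjusted p = 0.0559), with a pseudocount of 0.1 (adjusted p = 0.0515), and without any 1 of the 4 basal libraries of WT and Mir182ΔM/ΔM (adjusted p from 0.116 to 0.158).

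Lyz2 was at 41.9 ± 2.97 CPM in WT and 32.9 ± 2.38 in Mir182ΔM/ΔM BMMs (SD, n = 2), a log2 fold change of -0.34 (SE 0.081, limma adjusted p = 0.0785). Rab6b had -0.49 (SE 0.13, limma adjusted p = 0.113), also without overlap. Libraries of the same replicate number deviated together in all pairs of conditions, and in the fit that took this number as a replicate block Lyz2 (limma adjusted p = 4.25e-06), Rab6b (0.00303), Gm14085 (0.0244) and Hal (1.09e-07) were called. That is 4 members, 2 higher and 2 lower, where the block called 18.6% of all genes higher and 12.7% lower. Gm14085 had a log2 fold change of 0.43 (SE 0.37 without the block and 0.14 with it). Lyz1, Cd276 and BC002163 had log2 fold changes of 0.09, 0.03 and -0.02, and were called in neither fit.

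The response to RANKL in Mir182ΔM/ΔM cells was larger. Lyz1 rose from 31.4 ± 3.02 to 124 ± 15.1 CPM (SD, n = 2), a log2 fold change of 1.94 (SE 0.15, limma adjusted p = 3.81e-05). Hal fell from 249 ± 10.6 to 30.8 ± 1.49 CPM (SD, n = 2), a log2 fold change of -2.98 (SE 0.085, limma adjusted p = 4.46e-07). Rab6b fell with -1.25 (SE 0.13, adjusted p = 0.000185), Lyz2 fell with -0.48 (SE 0.081, adjusted p = 0.0019), and Cd276 rose with 0.54 (SE 0.135, adjusted p = 0.0122).

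In all, 2 members rose and 3 fell, and in this comparison 30.4% of all genes rose and 26.4% fell, so calls were common. The groups of these 5 members did not overlap. The call of Cd276 was lost without Mir182ΔM/ΔM basal replicate 2 (limma adjusted p = 0.0748) and without Mir182ΔM/ΔM RANKL replicate 1 (0.0668). Gm14085 had -0.44 (SE 0.37, limma adjusted p = 0.347) and was called with the replicate block (SE 0.14, adjusted p = 0.00779), where 42.7% of all genes were higher and 36.3% lower. BC002163 had a log2 fold change of 0.08 (SE 0.208) and was called in neither fit, and Angptl7 had 2 to 6 reads in each of the 4 libraries.

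In WT cells the values after RANKL differed in the same direction for Hal, Rab6b and Cd276, and in the opposite direction for both lysozymes. These differences were used to choose the members and are not tested. For Hal the mean was 0.865 ± 0.151 CPM after RANKL and 171 ± 1.88 at baseline (SD, n = 2), 198-fold lower, and for Cd276 it was 16.4-fold higher after RANKL. Lyz1 was 1.58-fold lower after RANKL in WT cells, with 18.6 ± 3.41 against 29.4 ± 2.86 CPM (SD, n = 2). The WT RANKL libraries are those that stood apart above, so the effect of RANKL and what set these libraries apart cannot be told apart.

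Mir182mTg BMMs were compared with Control BMMs by edgeR on the read counts of 12081 genes. None of the 6 members tested was called by edgeR, 1 had an unadjusted p under 0.05, and DESeq2 and limma called none either. Among all genes 0.0993% were called higher and 0.157% lower. Rab6b and Gm14085 were under the filter on low counts. Lyz2 was at 6199 ± 589 CPM in Control and 6700 ± 512 in Mir182mTg BMMs (SD, n = 2), a log2 fold change of 0.10 (SE 0.105, edgeR adjusted p = 1), and the groups overlapped.

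Angptl7 was at 4.65 ± 0.157 CPM in Control and 7.72 ± 0.268 in Mir182mTg BMMs (SD, n = 2), a log2 fold change of 0.72 (SE 0.13, edgeR adjusted p = 0.161). Cd276 had 0.25 (SE 0.127, edgeR adjusted p = 0.887). With the replicate block in edgeR, Angptl7 (adjusted p = 0.000443), Cd276 (0.0113) and Lyz2 (0.0126) were called higher, 3 of 6 members and none lower, where 6.94% of all genes were called higher and 8.15% lower. Lyz1 (0.23), Hal (-0.11) and BC002163 (0.91, at 3 to 17 reads a library) were called in neither fit.

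**Figure D4:**
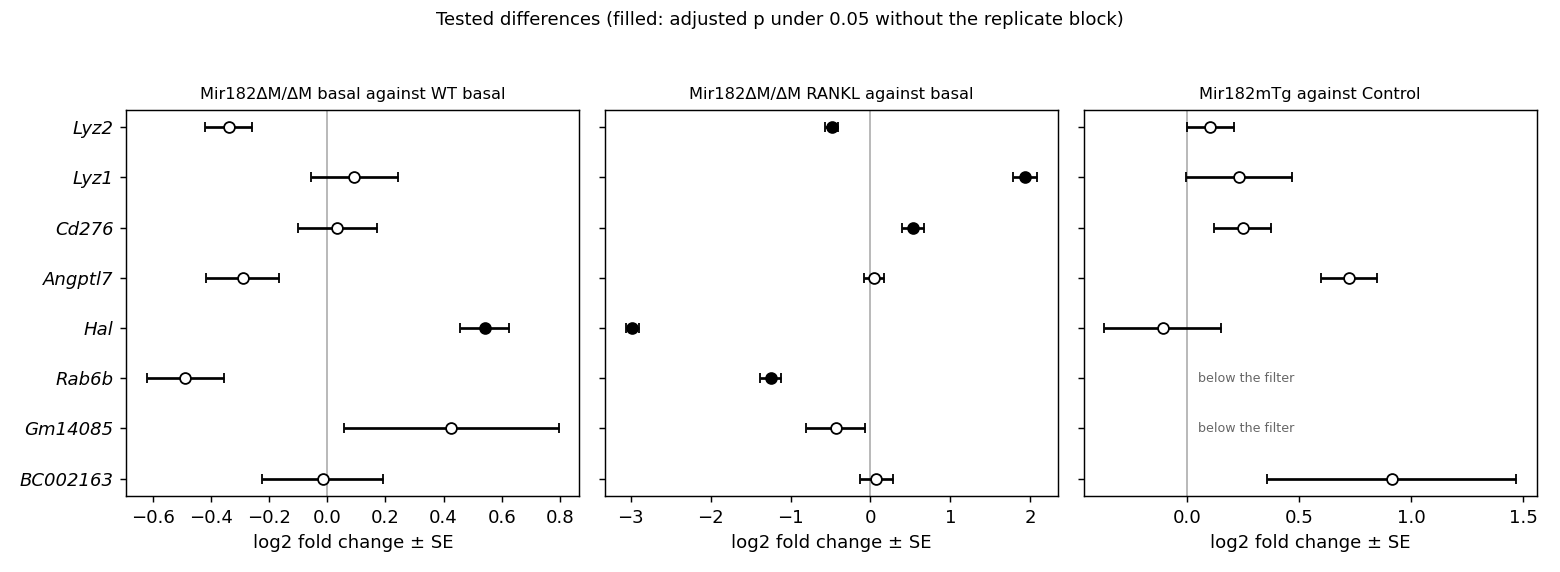
Log2 fold change with its SE for the 8 genes in the 3 tested comparisons (limma on the left and in the middle, edgeR on the right, no replicate block); filled points had an adjusted p under 0.05, and the x axes differ in range; Angptl7 in the left and middle panels passed the filter only through the WT RANKL libraries. Filled points are Hal in the left panel and Lyz2, Lyz1, Cd276, Hal and Rab6b in the middle panel.

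The families and pathways of the members gave 57 further genes in 8 lists, of which 40 were tested in each comparison. Between Mir182ΔM/ΔM and WT BMMs at baseline limma called none of the 40, and 12 had an unadjusted p under 0.05. Of all genes 2.71% were called higher and 1.10% lower. With the replicate block 10 were higher and 2 lower, where 18.6% of all genes were higher and 12.7% lower. Between Mir182mTg and Control BMMs edgeR called none, and 13 had an unadjusted p under 0.05. Of all genes 0.0993% were called higher and 0.157% lower. There the replicate block called 15 higher and 1 lower, and 6.94% of all genes higher and 8.15% lower. Of these 15, 11 were on the granule and antimicrobial list. DESeq2 called 8 of 12 granule and antimicrobial genes higher in Mir182mTg BMMs, where it called 0.422% of all genes higher and 0.496% lower, and the replicate block called 11 of 12 higher. Of the neutrophil markers DESeq2 called 2 of 6 higher and 0 lower, and the block 3 of 5 higher and 1 lower. The part of neutrophils in these calls was not tested. In Mir182ΔM/ΔM cells after RANKL 12 of the 40 rose and 17 fell, where 30.4% of all genes rose and 26.4% fell. In WT cells 17 rose and 16 fell, where 40.6% of all genes rose and 22.0% fell. Here and in the lists below, the effect of RANKL in WT cells and what set the WT RANKL libraries apart cannot be told apart. The median log2 fold change of all genes was 0.05 in Mir182ΔM/ΔM and 0.19 in WT cells, and with TMM factors 0.01 and -0.01. Of the genes called in WT cells 64.8% were higher, and 48.5% with TMM factors, which called 28.7% of all genes higher and 30.5% lower.

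Granule and antimicrobial genes fell in both genotypes, 11 of 12 in Mir182ΔM/ΔM cells (median log2 fold change -2.48) and 12 of 12 in WT cells (median -1.49). Of all genes 26.4% fell in Mir182ΔM/ΔM cells and 22.0% in WT cells, or 30.5% in WT cells with TMM factors. Cybb was the member of the list that was not called in Mir182ΔM/ΔM cells, with a log2 fold change of -0.00492, and S100a8 and S100a9 stand on this list and among the neutrophil markers. Mpo, the myeloperoxidase of neutrophil granules, fell with -4.09 in Mir182ΔM/ΔM cells and -2.37 in WT cells (limma adjusted p = 1.25e-06 and 1.1e-05). The 4 tested neutrophil markers fell in both as well.

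Of the 5 tested B7 genes other than Cd276, 4 rose and 1 fell in each genotype. In Mir182ΔM/ΔM cells Pdcd1lg2, 1 of those that rose, passed the filter only through the WT RANKL libraries. Of all genes 30.4% rose and 26.4% fell in Mir182ΔM/ΔM cells, and 40.6% rose and 22.0% fell in WT cells. Cd274, which encodes PD-L1, rose with 1.71 in Mir182ΔM/ΔM and 2.23 in WT cells, and Icosl, the ligand of ICOS, fell with -2.53 and -2.65. Of the histidine genes other than Hal, Uroc1 and Ftcd had 0 reads throughout, and Hdc, which makes histamine from histidine, rose with 1 on the log2 scale in Mir182ΔM/ΔM cells (limma adjusted p = 0.000309). In WT cells Hdc had -0.31 (limma adjusted p = 0.0508), at means of 0.55 and 0.246 CPM at baseline and after RANKL. It was called lower there with TMM factors and with the replicate block. Hdc passed the filter only through the Mir182ΔM/ΔM libraries, so no test of it in WT cells is read. Angptl2 was the most abundant angiopoietin-like gene, at means of 10.3 to 260 CPM, and fell with -2.76 in Mir182ΔM/ΔM and -1.82 in WT cells. Of the 3 tested genes of that list 1 rose and 1 fell in each genotype, and 0 and 1 in WT cells both with TMM factors and on the 4 WT libraries alone.

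The lists of Rab6a with Rab6 partners (7 tested), nucleoside transporters (4) and complex I genes (7) gave no common direction in Mir182ΔM/ΔM cells, with 2 rising and 2 falling, 2 and 1, and 2 and 0. In WT cells these were 5 and 0, 2 and 1, and 5 and 0. With TMM factors they were 3 and 1, 2 and 1, and 3 and 0. On the 4 WT libraries alone they were 4 and 0, 2 and 1, and 4 and 0. Of all genes 30.4% rose and 26.4% fell in Mir182ΔM/ΔM cells. In WT cells 40.6% rose and 22.0% fell, or 28.7% and 30.5% with TMM factors. The share of all genes called on the 4 WT libraries alone is not given, so nothing is read from list counts on them. Lyzl4, the only lysozyme gene tested besides the paralogs, fell with -1.22 in Mir182ΔM/ΔM and -1.21 in WT cells.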

How the data were processed

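RNA-seq of 12 libraries was used. For the 8 loss of function libraries the authors deposited CPM, which were whole multiples of 1 read in 100% of values (tolerance 0.01 reads). For the 4 gain of function libraries the authors deposited the read count per gene. For replicate 1 the deposited files also hold RPKM. The notes of the submitters name TopHat and Cufflinks for replicate 1 and HISAT2, HTSeq and edgeR for replicate 2, with mm10. The labels give poly-A RNA for replicate 1 and total RNA for replicate 2. Row names that had turned into dates, 27 in all, were restored from a file with the same row order.

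The members and lists were chosen with earlier results of these data known. The genes named are the members, the 10 others with the largest gap in each direction, examples of the lists, and tested neighbours. CPM were tested with limma 3.58.1 (trend) on log2(CPM + 1), for genes with at least 1 CPM in 2 of the 8 libraries, in 1 fit of 4 groups. Counts were tested with edgeR 4.0.16 (TMM, filterByExpr, quasi-likelihood) and, as an alternative, DESeq2 1.42.0. Adjusted p are those of Benjamini and Hochberg over all genes tested, with a threshold of 0.05. The tests are two-sided, and a fold change on log2(CPM + 1) understates the change of low genes. Deviations of equal replicate numbers from their group means correlated at 0.686 to 0.754 between conditions, and the labels give each number its own pipeline, so the numbers were taken to pair the libraries. Levels across the 2 experiments rest on files deposited separately. Coordinates are those of GENCODE vM21. Tests were checked on simulated data. One other comparison, Mir182ΔM/ΔM against WT after RANKL, was used by the choice of members and is not reported.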

Additional observations from a re-analysis of the deposited data

Results flagged for a closer look

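Both lysozymes differed in the direction of the RANKL response between the genotypes, in every pairing of libraries, and the difference was not tested. For Lyz1 the log2(CPM + 1) difference between RANKL and baseline was -0.64 in WT and 1.94 in Mir182ΔM/ΔM cells, so that the second minus the first was 2.58. For Lyz2 it was 6.62 in WT and -0.48 in Mir182ΔM/ΔM cells, and the second minus the first was -7.10. Both values rest on the 2 WT RANKL libraries that lay with the Control and Mir182mTg libraries in the genes described. The difference between these libraries and WT basal was used to choose Lyz2, and Lyz1 was added as its paralog. The agreement over pairings of libraries for Lyz2 therefore follows from the choice, and nothing is read from it.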

How the results depend on the processing

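Among the log2 fold changes of the members under the alternatives, 295 kept their direction and their side of the threshold, 15 passed it, 8 no longer did and 11 changed sign. None of these 11 was called with or without the change. Leaving out 1 library at a time gave, for Mir182ΔM/ΔM against WT BMMs, ranges of -0.00369 to 0.189 for Lyz1, -0.0999 to 0.169 for Cd276 and -0.123 to 0.0914 for BC002163. For RANKL against baseline in Mir182ΔM/ΔM cells the ranges were -0.0541 to 0.131 for Angptl7, -0.908 to 0.0363 for Gm14085 and -0.151 to 0.302 for BC002163, and for Mir182mTg against Control BMMs -0.0275 to 0.536 for Lyz1 and -0.222 to 0.0177 for Hal. Quantile normalization gave -0.20 for Angptl7 in Mir182ΔM/ΔM cells after RANKL. Angptl7 had 2 to 6 reads in each Mir182ΔM/ΔM library and passed the filter only through the WT RANKL libraries. The counts above include it, but its fold changes in the loss of function experiment are not read. For Mir182ΔM/ΔM against WT BMMs at baseline, 446 genes and 1 member were called. With the replicate block these were 3651 and 4, with the block and TMM factors 3654 and 4, and with edgeR on recovered reads and the block, which was chosen after seeing the data, 3695 and 4. On the 4 libraries compared they were 102 and 0, and leaving out 1 library gave 97 to 293 genes and 0 to 1 member. With a pseudocount of 0.1, and with at least 1 CPM in every library (a filter Hal did not pass), 0 members were called.

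For RANKL against baseline in Mir182ΔM/ΔM cells, 5 members were called, and 3 with at least 1 CPM in every library, which left fewer members to test; leaving out 1 library gave 4 to 5. For Mir182mTg against Control BMMs, edgeR called 31 genes, DESeq2 124, edgeR without the filter on low counts 141, with at least 1 CPM in every library 16, and with the replicate block 1822, and leaving out 1 library gave 55 to 166. There 0 members were called, and 3 with the block. The cause of these differences was not tested. The block changed no other call of a member than those given in the report. With a pseudocount of 0.1 the gaps of Rab6b (3.35), Gm14085 (3.14), BC002163 (2.50) and Angptl7 (2.98) were over 1.5 times larger, Angptl7 came before Cd276 (2.72), Rab6b, Gm14085 and BC002163 came before Apoe (1.93), and Tmem119 (2.60) and Spint1 (2.53) before Itgb7 (1.70).

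At 3 reads, or 0.0908 to 0.12 CPM, Rab6b and Gm14085 were at or near the limit of detection in the first set of libraries, so ratios there are imprecise. With 2 replicates a condition, and different RNA and pipelines for replicates 1 and 2, the spread between replicates holds both.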
